A study of Mus musculus with 6 samples.

Results

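The regions described here are the isolated autosomal peaks of Jun, the places on mouse chromosomes 1 to 19 where a Jun peak had no other Jun peak nearby. Jun is a subunit of AP-1, a transcription factor that binds DNA as a pair of proteins from the Jun, Fos and related families. In cartilage, AP-1 factors are studied for their part in hypertrophy, the enlargement that chondrocytes go through before cartilage is replaced by bone. AP-1 is known mostly for binding enhancers, which often lie far from gene starts and close to other bound elements. The isolated peaks show what the binding map holds in its sparser stretches.

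The peaks came from 1 ChIP-seq library, in which DNA bound by Jun was precipitated and sequenced, made from rib chondrocytes of untreated wild-type ICR mice at postnatal day 1. The cells had been released from the cartilage by enzyme digestion, and 20000000 of them, cross-linked with 1% formaldehyde, went into the precipitation. How many animals gave these cells is not stated in the labels. The other 5 samples, an input DNA library from the same kind of cells and 4 RNA-seq libraries of sorted Col10a1mCherry chondrocytes, gave no values used here, so the labelled cell type was not checked against marker genes. The study asked how AP-1 factors act together with Sox9, the factor that drives cartilage formation, as chondrocytes become hypertrophic.

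The members were chosen by position. Each peak was reduced to its midpoint, and a peak was taken as isolated when its nearest other midpoint lay more than 50 kb away on either side, with chromosome ends counted as far. This gave 2766 isolated peaks, which are 2.83% of the 97800 autosomal peaks and of 99162 peaks in all. Gaps and surroundings follow at least in part from that choice and are given as descriptions. Width and place in the list did not enter the rule, but they come from the same list of 1 library. No replicate exists against which a difference could be tested, so no p-value is given, and the 95% intervals are exact binomial (Clopper-Pearson) ones that cover counting error only. Read depth is unknown, and the peaks carry no height or score.

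The rule sat on a slope and not at a break in the distances. Of the isolated peaks, 658 had their nearest neighbour at 50 to 60 kb, 537 at 60 to 75 kb and 514 at 75 to 100 kb. The member closest to the limit lay on chromosome 1 from 7078711 to 7078828, with its nearest neighbour at 50.006 kb and a width of 118 bp. The next 4 had theirs at 50.01 to 50.02 kb. On the other side of the limit, the 5 peaks that missed it most narrowly had theirs at 49.91 to 49.99 kb and lay on chromosomes 7 (2 peaks), 19, 15 and 17. The 5 peaks just inside had 8 to 40 other peaks within 500 kb, and the 5 just outside had 32 to 111.

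Isolated peaks were the end of a range of group sizes. When all autosomal peaks with successive midpoints at most 50 kb apart were joined, 9125 groups formed, and the isolated peaks are exactly the groups of 1, or 30.3% of the groups. A further 1309 groups held 2 peaks and 821 held 3, whereas 1834 groups of 10 to 49 peaks held 40.6% of the autosomal peaks and 462 groups of 50 or more held 39.9%. The largest group held 349 peaks. Most Jun peaks thus belonged to groups of 10 or more, while groups of 1 outnumbered those of each other size class in this count.

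Around the isolated peaks the genome was sparse but seldom empty. The median distance to the nearest neighbour was 82.4 kb, the central 50% of members lay between 60.8 and 132.7 kb, and 5% of members exceeded 400.3 kb. On the farther side the next peak lay at a median of 177.5 kb. The 2 gaps of a member were often unequal: the larger was a median of 1.78 times the smaller, and more than 2 times in 1162 of the 2754 members with a neighbour on both sides (42.2%). The nearer neighbour was on the left, towards lower coordinates, for 49.8% of them. Another 12 members were the first (5) or the last (7) peak of their chromosome.

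The territory of an isolated peak, measured from its left to its right neighbour, had a median of 278.3 kb. Territories under 200 kb surrounded 901 members (32.7%), and territories over 1 Mb surrounded 314 (11.4%). Counted once where they overlap, all territories covered 1011 Mb of the 2400 Mb between the first and last peaks of the autosomes. Isolated peaks thus made up 2.83% of the peaks, while the stretches in which each was the lone peak between its neighbours made up 42.1% of the span. Long empty stretches did not all end at an isolated peak. Of the 9106 gaps over 50 kb between successive autosomal peaks, 4330 (47.6%) had an isolated peak at 1 or both ends and 4776 separated groups of 2 or more peaks.

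Within 500 kb to either side an isolated peak had a median of 19 other peaks, and the central 50% of members had 7 to 36. Other autosomal peaks had a median of 73. The ranges overlapped widely. Of the members, 93 (3.36%) had no other peak within 500 kb and 21 had none within 1 Mb, while 354 (12.8%) had 50 or more within 500 kb. The member with the fullest surroundings, picked out with the next after the counts were seen, lay on chromosome 5 from 125290190 to 125290312, where 170 peaks fell within 500 kb, although its own nearest neighbour was 51.7 kb away. Another, on chromosome 7 from 124234542 to 124234663, had 154 peaks within 500 kb and gaps of 166.6 and 169.0 kb. These peaks stood in a clearing of a crowded region, unlike the members in wide empty ones.

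The 10 most isolated peaks had at least 1.27 Mb free on each side. The first of them, an 88 bp peak on chromosome 15 from 17731300 to 17731387, had its neighbours 3.53 Mb to the left and 2.38 Mb to the right. Within 4 Mb of it there were 3 other peaks, and all 3 were isolated too. The second, a 98 bp peak on chromosome 7 from 11080631 to 11080728, had gaps of 3.83 and 1.93 Mb. The third, 138 bp wide, lay on chromosome 14 from 39824290 to 39824427 with nearly equal gaps of 1.88 and 1.89 Mb. Chromosome 3 held 2 of the 10, which were next to each other: a 151 bp peak starting at 72186592 and a 123 bp peak starting at 73751619 stood 1.57 Mb apart. The remaining 5 lay on chromosome 2 (from 41084056), chromosome 8 (from 100927037), chromosome 18 (from 18288865) and chromosome 6 (from 45792029 and from 110417862).

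**Figure D1:**
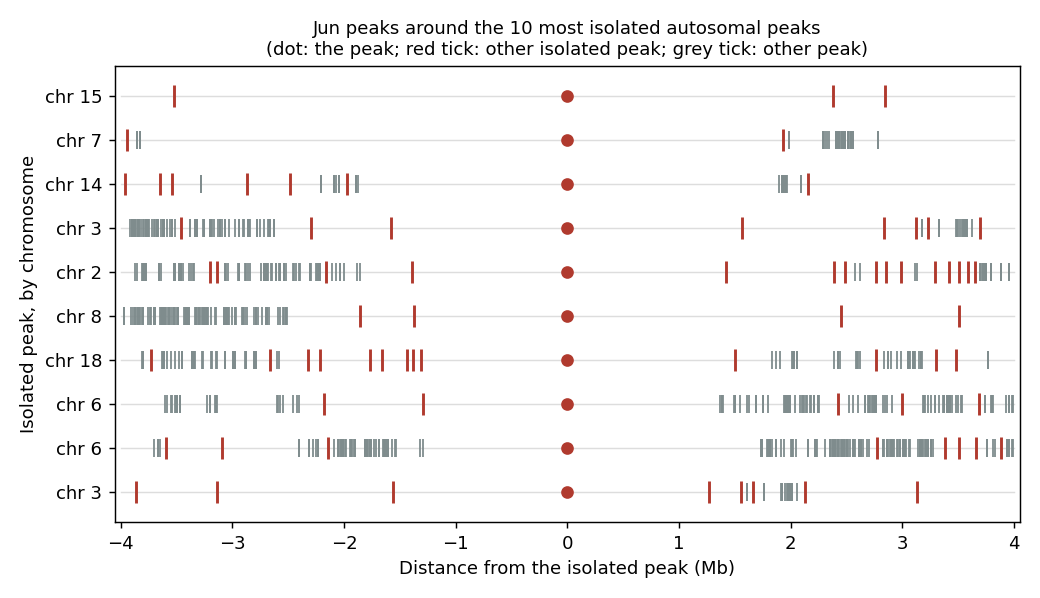
Positions of Jun peaks within 4 Mb of each of the 10 most isolated autosomal peaks, 1 row per peak, with the distance from that peak in Mb on the horizontal axis and the chromosome on the vertical one. Dots are the 10 peaks, red ticks other isolated peaks and grey ticks the remaining peaks; every row is empty for at least 1.27 Mb on each side of the dot, and the chromosome 15 row holds 3 other peaks against 203 in the second chromosome 6 row.

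What lay beyond those empty stretches differed between the 10. On chromosome 6 the peak from 110417862 had 203 peaks within 4 Mb, on the other side of gaps of 1.29 and 1.73 Mb. The chromosome 14 peak had 36 within 4 Mb and the later of the 2 chromosome 3 peaks 30. Widths of the 10 ran from 64 to 171 bp, so none reached 200 bp. Among all isolated peaks 8.03% did, and among the 93 more than 500 kb from any other 10.8%. Their places in the deposited list ran from 29818 to 98691 of 99162, and none was in the first 30% of it.

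Isolated peaks often followed one another along the chromosome. For 1166 members (42.2%) the nearest neighbour was itself isolated, and for 597 (21.6%) both neighbours were. Isolated peaks were 30.3% of all groups, so part of this follows from their number. In terms of runs of consecutive isolated peaks, 983 members (35.5%) stood between groups and 1783 belonged to 593 runs of 2 or more. The 72 runs of 5 or more held 459 members (16.6%). At the other extreme, 704 members (25.5%) bordered a group of 10 or more peaks on at least 1 side, and 137 (4.95%) bordered a group of 50 or more. Groups of 10 to 49 peaks were 20.1% of all groups and those of 50 or more 5.06%, and most members have 2 sides to border one. Large groups were thus not frequent neighbours for their number.

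The longest runs were chains of 12 on chromosome 18 and chromosome 11 and of 11 on chromosome 12. The run on chromosome 18, from 25931276 to 30788816, extended over 4.86 Mb with a median spacing of 341 kb and a largest gap of 1.27 Mb. Its 12 peaks were 33 to 156 bp wide. On chromosome 11 the run from 36070394 to 40319380 extended over 4.25 Mb, and a gap of 2.17 Mb split it into 9 peaks and 3. It held the widest peak of the 3 runs, 437 bp from 37280991 to 37281427, at place 95841 of the list, among peaks of 77 to 142 bp. The run on chromosome 12, from 67258497 to 70068879, extended over 2.81 Mb with a median spacing of 181 kb. Members in runs of 5 or more had a median of 5 peaks within 500 kb, those in runs of 2 to 4 had 17, and those standing alone between groups had 32. Their median widths were 113, 111 and 113 bp in that order, and 6.97%, 7.93% and 8.65% of them reached 200 bp, with overlapping intervals (4.82 to 9.70%, 6.53 to 9.52% and 6.97 to 10.6%).

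Over the whole list the median widths of isolated and other peaks were close, but fewer of the isolated peaks were wide. Their median width was 112 bp (central 50% 89 to 141 bp) against 114 bp (88 to 152 bp) for the 95034 other autosomal peaks. The 95th percentile was 234.5 bp against 351 bp. Of the isolated peaks 222 (8.03%, interval 7.04 to 9.10%) measured 200 bp or more, against 14.2% (14.0 to 14.4%) of the others. With peaks within 1000 bp merged first, these shares were 18.4% of the isolated and 29.9% of the other regions. A merged region runs from its first start to its last end, gaps included. Its width thus follows in part from close neighbours and is not a peak width. For single peaks of 300 bp or more the shares were 2.71% (75 peaks) and 7.28%, and at 400 bp or more 1.19% (33 peaks) and 3.15%. Very narrow peaks were also somewhat fewer, with 5.06% (4.27 to 5.95%) of the isolated peaks under 50 bp and 6.34% (6.18 to 6.50%) of the others. That contrast lay mostly with close neighbours: the share under 50 bp was 7.65% with a neighbour within 1 kb and between 4.92% and 5.80% in the classes from 2 to 50 kb. The isolated peaks together covered 340 kb.

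**Figure D2:**
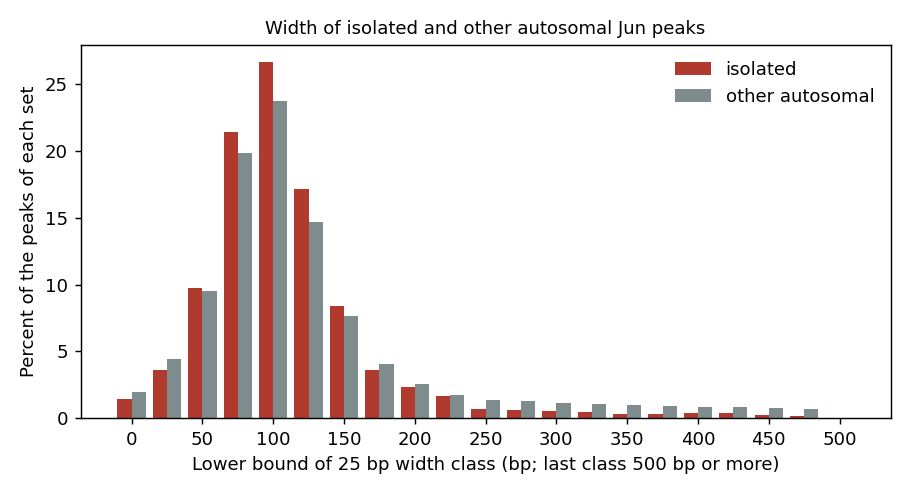
Percent of the peaks of each set in width classes of 25 bp, for the 2766 isolated peaks (red) and the 95034 other autosomal peaks (grey); the horizontal axis gives the lower bound of each class in bp. Both sets are highest at 100 to 125 bp, with 26.6% and 23.7% of their peaks, and from 250 bp upwards every grey bar is above the red one.

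Wide peaks were most frequent where a neighbour was within 1 kb, and isolated peaks were closer to peaks at middle distances than to these. Among peaks whose nearest neighbour lay within 1 kb, 19.97% measured 200 bp or more, and at 1 to 2 kb 13.1% did, against 14.0% of all autosomal peaks. At 5 to 10 kb the share was 9.10% (interval 8.59 to 9.63%), at 10 to 20 kb 9.31% and at 20 to 50 kb 9.55% (8.84 to 10.3%). Isolated peaks with a neighbour at 50 to 100 kb had 8.13% (6.88 to 9.53%), those at 100 to 200 kb 7.14% (5.28 to 9.41%), those at 200 to 500 kb 8.44% (5.63 to 12.04%) and the 93 beyond 500 kb 10.8% (5.28 to 18.9%). All 27855 peaks at 5 to 50 kb together had 9.28% (8.94 to 9.62%), and all isolated peaks had 8.03% (7.04 to 9.10%). These intervals overlap only from 8.94 to 9.10%, and an overlap does not show the shares to be alike. Isolated peaks stood later in the list, and this comparison was not matched for place. At 300 bp or more the intervals lay apart, with 3.90% (3.67 to 4.13%) of the peaks at 5 to 50 kb and 2.71% (2.14 to 3.39%) of the isolated ones. Median widths were 111 to 118 bp in the 4 classes of isolated peaks and 111 bp in the 3 classes between 5 and 50 kb.

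**Figure D3:**
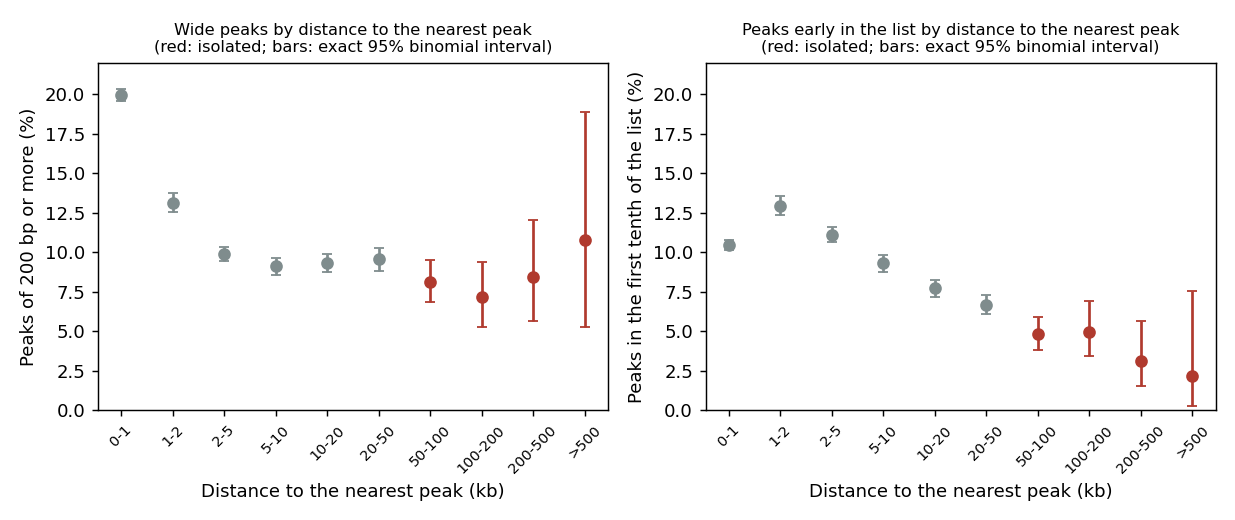
Left, percent of autosomal Jun peaks of 200 bp or more, and right, percent in the first 10% of the deposited list, in classes of distance to the nearest peak in kb; red points are isolated peaks, grey points others, and bars are exact 95% binomial intervals. The left points fall from 19.97% to about the 9.10% of the class at 5 to 10 kb and then stay near it within their intervals, while the right points rise from 10.5% within 1 kb to 13.0% at 1 to 2 kb, are lower in each class up to 50 to 100 kb (4.80%), and lie at 4.97%, 3.13% and 2.15% in the last 3 classes.

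The widest isolated peak measured 494 bp, on chromosome 15 from 36032861 to 36033354, and it stood in a small clearing with neighbours 58.9 and 61.5 kb away and 38 peaks within 500 kb. The second, of 489 bp on chromosome 6 from 23788828 to 23789316, had gaps of 523.7 and 677.3 kb and no other peak within 500 kb. On chromosome 1 a peak of 483 bp from 30651712 to 30652194 came next, with 1.66 Mb free to its left and 198 kb to its right. A peak of 473 bp on chromosome 5 from 84846130 to 84846602 combined width with distance: its gaps were 980 kb and 1.39 Mb, and there was 1 other peak within 1 Mb. For the other 6 of the 10 widest, widths ran from 456 to 482 bp. They were found on chromosome 4 (starting at 12834064), 11 (111301161), 3 (157196966 and 106350519), 1 (23389547) and 18 (37308710). The 10 widest thus stood in small clearings and in nearly empty places. They had up to 38 peaks within 500 kb, and the median over all isolated peaks was 19. Crowded places also held wide members: a 438 bp peak on chromosome 11 from 87666303, picked out later, had 94. No isolated peak reached 500 bp.

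At the other end, the narrowest members were 2 peaks of 4 bp, starting at 19182644 on chromosome 11 and at 75684072 on chromosome 14. The next were 5, 6 and 7 bp wide, on chromosomes 5, 2 and 10. These 5 were picked out after their widths were seen. The widths are those of the deposited intervals, and the sheared fragments behind them measured 100 to 600 bp.

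Among the isolated peaks themselves, width had next to no relation to isolation. Across the 2766 members Spearman's rho was 0.003 between width and the distance to the nearest neighbour, and -0.005 between width and the number of peaks within 500 kb. Width and place in the list had a rho of 0.080, and distance and place one of 0.057. All members come from 1 library, and neighbouring members share their gaps, so these are descriptions.

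Isolated peaks stood later in the deposited list than other peaks. The list is not in genomic order, and what its order stands for is not stated. The median place of the isolated peaks was at 56.9% of the list, against 49.6% for the others. The leading 10% of the list held 126 isolated peaks, which are 4.56% of them (interval 3.81 to 5.40%), compared with 10.2% of the other peaks. Its last 10% held 333 (12.04%, 10.8 to 13.3%), compared with 9.84%. The leading 1% held 8, or 0.289% of the isolated and 1.03% of the other peaks. Peaks beyond 500 kb from any other had their median place at 62.3% and those at 200 to 500 kb at 62.4%, compared with 55.2% at 50 to 100 kb.

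The scarcity of isolated peaks was a feature of the beginning of the list. They were 1.28% (interval 1.07 to 1.52%) of the autosomal peaks in the first 10% of the list, 2.06% (1.79 to 2.36%) in the second, 2.69% (2.38 to 3.03%) in the third and 3.11% (2.77 to 3.47%) in the fourth. From there to the last 10% the share lay between 2.95% and 3.44%, and the intervals overlapped. Isolation was also measured again among the peaks of the last 50% of the list alone. With fewer peaks counted, 3896 were isolated, 7.99% of the autosomal peaks of that part, and 1581 of them were members of the main set. The median place within that part was 49.4% for isolated and 49.9% for other peaks, so the later place did not appear in this looser set. Among the first 50% of the list alone, 3459 peaks were isolated, 1185 of them members of the main set, and the medians were 56.7% and 49.3%. Over classes of distance the share of peaks in the first 10% of the list did not move in 1 direction throughout. It was 10.5% with a neighbour within 1 kb and higher, 13.0%, at 1 to 2 kb, then 11.1% at 2 to 5 kb, 9.30% at 5 to 10 kb, 7.72% at 10 to 20 kb and 6.69% at 20 to 50 kb. Among isolated peaks it was 4.80% at 50 to 100 kb, 4.97% at 100 to 200 kb, 3.13% at 200 to 500 kb and 2.15% (2 of 93 peaks, interval 0.262 to 7.55%) beyond 500 kb, with overlapping intervals.

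**Figure D4:**
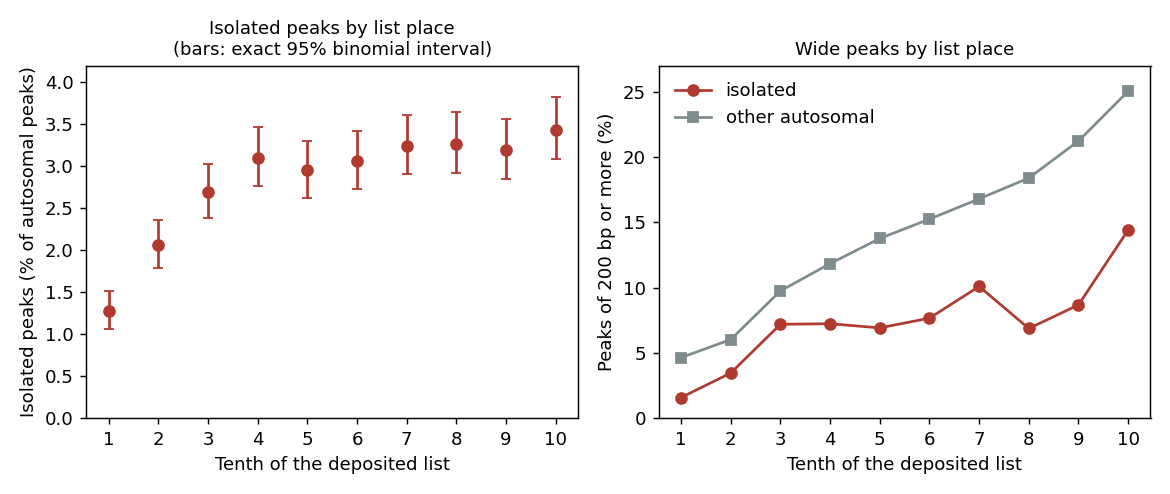
Left, isolated peaks as a percent of the autosomal peaks in each successive 10% of the deposited list, with exact 95% binomial intervals; right, percent of peaks of 200 bp or more in each 10% for isolated (red) and other autosomal peaks (grey). The left points rise from 1.28% to 3.11% over the first 4 parts and then stay between 2.95% and 3.44%, and on the right the red points are below the grey ones in all 10 parts.

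The smaller share of wide peaks was also seen at matched places in the list. In each of the 10 parts of the list fewer isolated than other peaks measured 200 bp or more: 1.59% against 4.64% in the first part, 6.92% against 13.8% in the fifth and 14.4% against 25.04% in the last. If the other peaks were weighted to the list places of the isolated ones, 15.4% of them would be that wide, and the ratio of isolated to other peaks changed from 0.565 to 0.520. Peaks under 50 bp were fewer among isolated peaks in 9 of the 10 parts, the exception being the ninth (8.36% against 8.08%). Median widths of isolated and other peaks were both 106 bp in the first part. Late in the list they lay apart, at 111.5 against 120 bp in the eighth part, 112 against 125 bp in the ninth and 125 against 133 bp in the last.

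The earliest isolated peak, at place 26 of the list, was a 106 bp peak on chromosome 10 from 105278418 to 105278523. It had gaps of 266.0 and 271.9 kb and 5 other peaks within 500 kb. The next, at place 107, lay on chromosome 2 from 144194616 to 144194703 in fuller surroundings, with 78 peaks within 500 kb. At place 285 came a 97 bp peak on chromosome 6 from 43616151 to 43616247, with 231.7 kb free on the left and 878.7 kb on the right. The tenth isolated peak of the list stood at place 1179, on chromosome 10 from 16309315. All 10 earliest measured between 83 and 154 bp. The 5 latest, at places 99114 to 99147, were 63, 143, 97, 14 and 125 bp wide and lay on chromosomes 11, 10, 8, 3 and 13. These few peaks did not share one kind of surroundings at either end: the 10 earliest had 5 to 78 peaks within 500 kb and the 5 latest 7 to 38. Over all members, the median place was 62.3% of the list for those with no other peak within 500 kb. It was 56.6% to 57.7% in the middle classes and 52.0% for those with 50 or more. Spearman's rho between place and the number of peaks within 500 kb was -0.060.

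Each autosome carried isolated peaks, from 65 on chromosome 19 to 228 on chromosome 2. As a share of the chromosome's peaks they ran from 1.96% on chromosome 11 (134 of 6842, interval 1.64 to 2.32%) and 1.99% on chromosome 7 (115 of 5793, 1.64 to 2.38%) to 3.86% on chromosome 3 (212 of 5488, 3.37 to 4.41%) and 3.95% on chromosome 14 (152 of 3851, 3.35 to 4.61%). The intervals of the lowest and the highest pair did not overlap, but these pairs were picked as the extremes of the 19 autosomes. The intervals also count each peak as independent, although neighbouring peaks share their gaps. A difference between chromosomes was therefore not tested. Chromosomes with more peaks per Mb had smaller shares, with a Pearson's r of -0.760 and a Spearman's rho of -0.772 over the 19 autosomes. Share and density are computed from the same positions.

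Per Mb of span the isolated peaks were spread more evenly. The median over the 19 autosomes was 1.13 per Mb, and the relation to peak density was weaker (Pearson's r -0.167, Spearman's rho -0.223). Chromosome 3 had the most, 1.37 per Mb, followed by chromosomes 18, 14 and 10 with 1.31 each. Chromosome 7 stood lowest with 0.770 per Mb and chromosome 17 next with 0.944, whereas chromosome 11, the densest in peaks with 57.7 per Mb, was at 1.13. Chromosome 7 had few isolated peaks for its peak density of 38.8 per Mb: chromosomes 8 and 5, with 39.7 and 39.9 peaks per Mb, had 1.13 and 1.04 isolated peaks per Mb.

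**Figure D5:**
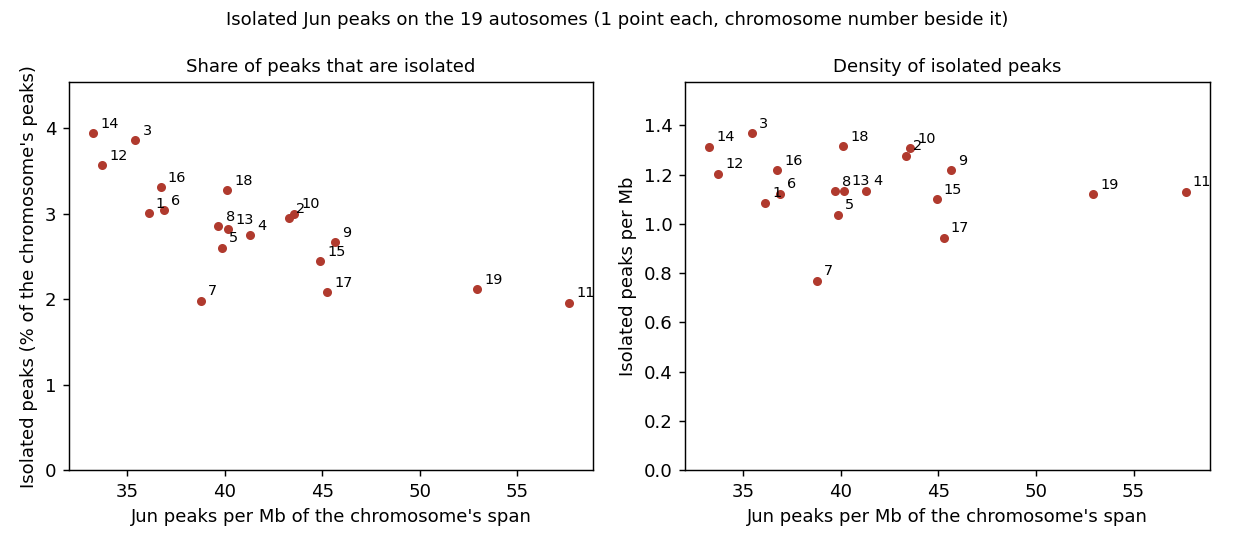
Isolated Jun peaks on the 19 autosomes, 1 point per chromosome with its number, against all Jun peaks per Mb of the chromosome's span; left, as a percent of the chromosome's peaks, right, per Mb. On the left the points fall from 3.95% on chromosome 14 to 1.96% on chromosome 11, and on the right most lie near the median of 1.13 per Mb, with chromosome 7 lowest at 0.770.

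The width and list patterns held on every autosome in direction. On all 19 the share of peaks of 200 bp or more was smaller among isolated than among other peaks, from 3.48% (4 of 115) on chromosome 7 to 12.2% (14 of 115) on chromosome 18, against 13.2 to 16.0% of the others. On all 19 the median place was later, from 53.8% of the list on chromosome 7 to 60.9% on chromosome 2, against 48.3 to 51.3%. Median widths of isolated peaks ran from 104 bp on chromosome 9 to 118 bp on chromosome 13. Members more than 500 kb from any other peak were most numerous on chromosome 6 (10), chromosome 4 (9) and chromosome 5 (9), and chromosomes 10 and 19 had none. The median territory was longest on chromosome 16 (357.8 kb) and shortest on chromosome 19 (228.1 kb).

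Along the chromosomes, isolated peaks were spread more evenly than peaks in general. When each span was split into 10 equal parts from the low to the high coordinates, each part held between 8.68% and 12.4% of the isolated peaks. All autosomal peaks were less even, with 7091 in the first part and 14710 in the last. As a share of the peaks there, isolated peaks went from 4.84% in the first part to 1.71% in the last. Which genes lie in these territories, and whether the isolated peaks hold an AP-1 recognition sequence, was not analysed here.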

How the data were processed

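The authors' deposited list of Jun peaks gives chromosome, start and end on mm9, the build named in the submitters' processing notes, in 3 columns without a header or another unit. The name of the list carries an FDR mark that no label explains. The aligner, peak caller and use of the input library are not stated for it, TopHat2 and Partek appear in the submitters' processing notes of the RNA-seq samples alone, and read depth is unknown. The list names no sample and was taken as that of the 1 Jun library.

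Widths are end minus start, printed starts count from 1, and place is the row number in the list. Lists were read with pandas 2.3.3 and numpy 2.4.6 (Python 3.11.15), intervals computed with scipy 1.17.1 and plots drawn with matplotlib 3.10.9. The search for isolated peaks was tested on simulated data. Peaks named are the 10 most isolated by the smaller of their 2 gaps, the 10 widest, the 10 earliest and 5 latest, the 3 longest runs and the 5 on each side of the limit; others are said to be picked later or illustrate a range. The members and lists were chosen with earlier results of these data known. Alternatives changed the distance, its end points, the peaks that count and the treatment of chromosome ends. Planned analyses of sequence motifs and of genes need mm9 sequence and gene positions and were not run; the gene tables at hand are of GRCm38 and were not used.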

Additional observations from a re-analysis of the deposited data

Results flagged for a closer look

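Chromosome X was outside the rule. By the same 50 kb distance, 193 of its 1358 peaks were isolated, which is 14.2% (exact 95% interval 12.4 to 16.2%), above the share on each autosome, though per Mb there were 1.20, within the range of the autosomes. X held fewer peaks than chromosome 19 (3072), the autosome with the fewest. On the autosomes the share was larger where peaks per Mb were fewer, but peaks per Mb of X are not given here. Whether sparser peaks account for the share on X was not tested. The share, in peaks no comparison of the report used, is why X is listed here. The isolated X peaks had a median width of 117 bp, and 21 of them (10.9%) measured 200 bp or more. Their median place, 64.0% of the list, was later than the 61.0% of the remaining X peaks. On Y, 2 of 4 peaks were isolated, too few to describe further.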

How the results depend on the processing

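Of 36 comparisons of a value with its alternative, 23 stayed within its counting interval, or within 1.5 times for a count. The number of isolated peaks was 7064 at 25 kb and 1057 at 100 kb in place of 50 kb, as follows from the rule, and their median place 54.6% and 59.5% of the list. With peaks within 1000 bp merged, 3129 regions were isolated, with a median width of 117 bp against 126 bp of other regions. Their median place was 53.5% against 42.5%, in both sets that of the earliest peak in a region. The share of 200 bp or more was 18.4%, against 29.9% of other regions. Widths of merged regions include the gaps between their peaks, so these widths and shares follow in part from the merging. With peaks of at least 50 bp the median width was 114 bp, against 117 bp of other peaks. Among the first 50% of the list alone it was 109 bp for isolated and other peaks alike, and the share of 200 bp or more 7.37% against 9.23%. Among the last 50% the median width was 116 against 122 bp, and that share 11.9% against 19.6%. The median place within that part was 49.4% against 49.9%. Within 1 Mb in place of 500 kb the median number of other peaks was 53. The cause of these changes was not tested beyond what their construction sets. Chromosome 14 had 1.62 times the share of chromosome 11 at 25 kb and 2.02 times at 50 and 100 kb, but the highest share was on chromosome 12 at 25 kb (9.07%) and on 16 at 100 kb (1.59%), where 19 was lowest (0.618%). The last 50% of the list, the share of 200 bp or more and its weighting by list place were chosen after seeing the data. No paired analysis was possible because 1 peak list was used. Motif and gene alternatives were not run. Without read depth or input values, a missing neighbour may be an undetected one, and unsequenced stretches were not set apart from empty ones.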

Other observations

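Isolation was sometimes lost to a close companion. After merging of peaks at most 1000 bp apart, 354 of the 3129 isolated regions (11.3%) held 2 or more peaks: 277 held 2, 77 held 3 or more, and the fullest held 6. The rule on single peaks leaves them out.

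Groups of 2, 3 and 4 peaks formed by the 50 kb distance lay between the isolated peaks and the large groups. Peaks of 200 bp or more made up 8.03% of the isolated peaks, 10.2% in groups of 2, 10.4% in groups of 3, 11.4% in groups of 4, 13.8% in groups of 10 to 49 and 15.8% in groups of 50 or more. The median place in the list went from 56.9% through 53.5% and 51.7% to 51.4% for groups of 1, 2, 3 and 4.

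The order of the list partly followed the genome in its later rows. In the first 10% of the list, 5.70% of rows were followed by a row on the same chromosome, close to the 5.53% of a fully mixed order, and 14 of 9917 by a peak within 1 Mb. In the seventh 10% these numbers were 11.9% against 5.34%, and 633 of 9916. Of the isolated peaks, 118 (4.27%) had such a close peak in the row before or after, against 4.81% of all autosomal peaks. In the run on chromosome 12, the peaks from 69836942 and from 69777427 stood at places 83823 and 83824. Small differences of place in these rows should therefore not be read as a ranking.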
